A study of Mus musculus with 4 samples.

Results

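Genes of the matrix metalloproteases (Mmp), of their relatives the ADAMs and ADAMTSs, and of the tissue inhibitors of metalloproteases (Timp) were followed in mouse mammary basal cells with and without miR-205. The members were all protein-coding genes whose symbol starts with Mmp, Adam, Adamts or Timp followed by a digit. The annotation holds 78 such genes, and 73 of them were among the 34615 gene rows: 21 Mmp, 31 Adam, 18 Adamts and 3 Timp genes. Mmp28, Adam11, Adam19, Adamts2 and Timp2 were not analysed here. Mammary cells of the genotypes WT;RosamTmG/mTmG (WT) or miR-205fl/fl;RosamTmG/mTmG (KO) were exposed in both groups to a Cre-carrying adenovirus and grown for 8 weeks as transplants in SCID-Beige mice aged 3 weeks, hosts that lack lymphocytes and have impaired NK cells but keep macrophages. Cells were isolated from pooled outgrowths, 40 according to the study's description, and the green, recombined basal cells (CD24+, CD49f high) were sorted. RNA of 2 WT and 2 KO libraries was sequenced, to find genes that differ when basal cells lack this microRNA. Nothing says that the libraries of a genotype came from separate pools, so p-values reflect no more than the variation among these 4 libraries, and that variation may be technical.

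Metalloproteases of these families cut proteins outside the cell and at its surface with a zinc ion in the active site, and most are made as inactive precursors. MMPs degrade collagens and other matrix proteins, ADAMs release growth factors and receptors from membranes, and ADAMTSs cut proteoglycans and process procollagen. TIMPs are secreted proteins that block the active site, and the balance of enzymes and inhibitors sets how the duct extends into the fat pad and how the gland regresses after lactation.

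miR-205-5p pairs with messenger RNAs through its seed, bases 2 to 8, shown in capitals in the first line. The heptamer ATGAAGG, the complement of that seed, was searched on the transcribed strand of the longest annotated 3' UTR of each gene, and a heptamer followed by A makes the octamer ATGAAGGA. Among the 48 members that passed the filter on low counts, 5 held the heptamer (10.4%), against 12.1% of 12627 tested protein-coding genes. The median UTR length was 1347 bases in these members and 1200 bases in all such genes. The 5 sites, with the match in capitals, are shown because they mark the members with a possible seed pairing. A match is a description of letters and not evidence of binding. The mature microRNA is from RefSeq (GRCm38.p6, chromosome 1, 193507503 to 193507524, minus strand) and the sites are from GENCODE M21 transcripts.
mmu-miR-205-5p: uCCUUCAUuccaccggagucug
Adamts9: gccataggagacggATGAAGGA
Adamts4: tagtcaacaagaacATGAAGGt
Adamts17: ggttgcctcctgacATGAAGGc
Adam10: acattttagcaacaATGAAGGt
Mmp14: catgcagcagatcaATGAAGGc

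Counted from the first base of the 3' UTR, the matches began at base 36 in Adamts9, the single octamer, at 1025 in Adamts4, 855 in Adamts17, 1158 in Adam10 and 938 in Mmp14. Log2 fold changes of KO over WT, described with each gene below, were -0.01 for Adamts9, -0.26 for Adamts4, -1.07 for Adamts17, -0.19 for Adam10 and 0.11 for Mmp14. Both KO libraries stood above both WT libraries in 0 of the 5 and below them in 1, Adamts17, where 13.2% and 19.2% of all tested genes had these orders.

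The libraries held 47953972 to 60030932 gene counts. KO replicate 2 stood apart: 12679 genes had a count there, against 18027 to 18897 in the other 3. Mir205 had 0 counts in all 4 libraries, so the deleted gene gave no check of the labels. Levels are counts per 1000000 gene counts after TMM scaling of the library size (CPM). The TMM factor was 0.87 in KO replicate 2 and 1.032 to 1.062 in the other 3 libraries. Basal markers were high in every library (6 listed genes with a row, summed 8909 to 11489 CPM). Luminal markers summed to 535 to 913 CPM, fibroblast markers, mostly Fbn1, to 574 to 918 CPM and immune markers to 66.0 to 319 CPM. The basal keratin Krt14 was not analysed here. In bulk RNA, fewer cells of a type and less RNA per cell cannot be told apart.

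Most members were silent or scarce in these cells. Of the 73, 17 had 0 counts in all 4 libraries: 14 ADAMs of the reproductive tract, the collagenase gene Mmp1b, the enamel protease gene Mmp20 and Adamts19. Where no read was counted, a level of up to 3 counts, that is 0.05 to 0.0626 CPM depending on the library and before TMM scaling, is still possible from counting error alone. A further 8 had at most 38 counts in any library and were not tested. Mmp9, the inflammatory gelatinase, had 1 count in WT replicate 1 and 0 elsewhere. Mmp7, the epithelial matrilysin, had 13 counts in WT replicate 1, 1 in KO replicate 1 and 0 in the others, and Timp4 had 6 counts in KO replicate 1 alone. At the other end, 14 members had a mean of 20 CPM or more.

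Detection in the lower members followed the library. All 14 members with a mean of 20 CPM or more and all 13 with a mean of 2 to 20 CPM had a count in every library. Of 29 scarcer members with a count in any library, 24, 21 and 27 were seen in WT replicate 1, WT replicate 2 and KO replicate 1, and 6 (20.7%) in KO replicate 2. Over all genes of that level, 25.8% were seen in KO replicate 2. Among tested members, 13 had a count in the other 3 libraries and 0 in KO replicate 2, 7 of them Mmp and 6 Adam genes. All 13 were among the 21 tested members under 2 CPM. The pattern was seen in 2458 of 4607 tested genes of that level, and in 3098 of all 15364 tested genes.

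**Figure D1:**
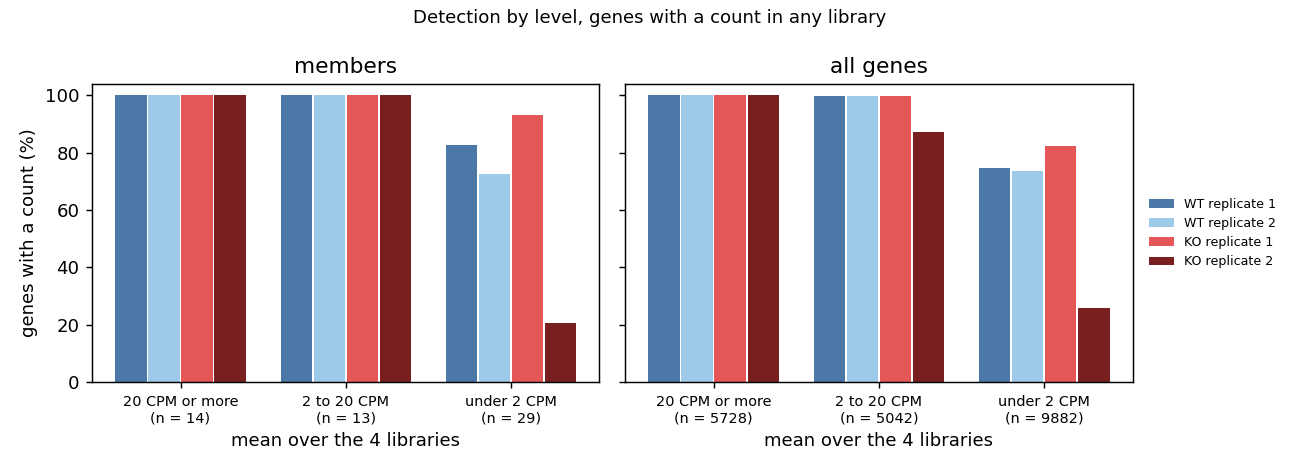
Percentage of genes with at least 1 count in each library (bars, coloured by library), for members (left) and all genes (right), by mean CPM over the 4 libraries. The bar of KO replicate 2 is the lowest among genes under 2 CPM, at 20.7% of members and 25.8% of all genes.

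No member was called. Over all 15364 tested genes the edgeR quasi-likelihood test gave 0 at a Benjamini-Hochberg adjusted p under 0.05 (0% of genes), and it gave 0 of the 48 tested members, with a smallest adjusted p of 0.999. Below an unadjusted p of 0.05 lay 147 genes and 0 members, and DESeq2 (4 genes called) and limma voom also called 0 members. The words higher and lower below therefore describe library values and no change that passed a test. Both KO libraries stood above both WT libraries in 3 tested members, or 6.25%, against 13.2% of all tested genes. They stood below in 8, or 16.7%, against 19.2% of all tested genes. The 3 above were Adam8, Adam9 and Mmp19. The 8 below were Adam17, Adam1a, Adamts10, Adamts13, Adamts17, Adamts18, Mmp10 and Mmp21. Both shares lay below the background. The median log2 fold change was -0.25 over the 48 members, of which 17 (35.4%) were positive. Over all tested genes the median was -0.14, and 42.8% were positive.

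The level ranged widely between members. Per kilobase of annotated exon and averaged over the 4 libraries, Timp3 led with 150 CPM per kilobase, followed by Adamts1 at 111, Mmp2 at 50, Timp1 at 41.3, Mmp14 at 20.5, Adamts4 at 19.4, Adam9 at 16.6, Adam10 at 15.5, Adam12 at 11.9 and Adamts9 at 10.2 CPM per kilobase. Timp3 (128 to 200 CPM per kilobase over the libraries) overlapped Adamts1 (73.5 to 142), so the order of the leading pair is within their spread. Adamts1 lay above Mmp2 (38 to 58.4) in every library, and Mmp2 overlapped Timp1 (29.4 to 49.7). Timp1 lay above Mmp14 (19.7 to 23.0), while Mmp14 overlapped Adamts4 (13.9 to 28.6). Neighbours in the rest of this order also overlapped, down to Adamts5 at 6.36, Adamts3 at 5.64, Adam17 at 5.23 and Adamts18 at 3.01 CPM per kilobase.

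**Figure D2:**
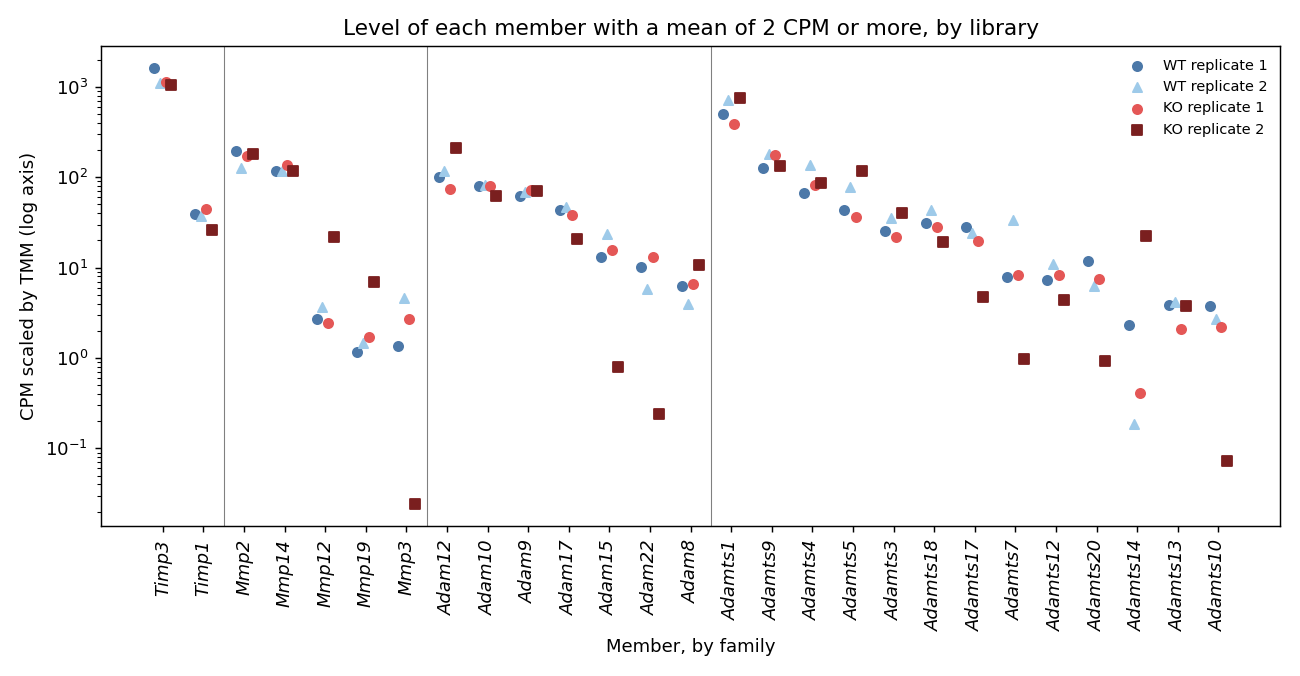
Level in CPM scaled by TMM (log axis, 1 point per library) of the members with a mean of 2 CPM or more, ordered by family and mean. The 4 points lie close together for Mmp14, Adam9 and Adam10 and farther apart for Adam12 (75 to 211 CPM) and Adamts5 (36.7 to 117 CPM), and below about 20 CPM the squares of KO replicate 2 often lie away from the other 3.

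Among the inhibitors, Timp3 had the highest mean level per kilobase of all members. TIMP3 binds to the matrix and blocks ADAM17 and ADAMTS enzymes beside MMPs. Timp3 (ENSMUSG00000020044) had 1626 and 1092 CPM (WT) against 1137 and 1042 CPM (KO), or 1359 ± 377 and 1090 ± 66.8 CPM (mean ± SD, n = 2). One WT library stood above the other 3, which lay close together, and the groups overlapped. The log2 fold change was -0.32 ± 0.25 (SE). Timp1 (ENSMUSG00000001131), a soluble inhibitor that acts weakly on membrane-type MMPs, had 39.3 and 37.1 CPM (WT) against 44.1 and 26.1 CPM (KO). Its KO libraries lay on either side of WT, with a log2 fold change of -0.12 ± 0.44. Exons of Timp3 overlap those of Syn3 on the other strand, and since the strand setting is not given, such reads cannot be assigned with certainty. The same holds for Adam3, Adam8, Adam15, Adamts4, Adamts8, Adamts9, Mmp7, Mmp11, Mmp19, Mmp24 and Timp4 and for the other-strand overlaps given below. Adam1a and Adam34 overlap a gene on the same strand. With these, 18 members in all had an exon overlapping another gene.

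Among MMPs, the level was carried by 2 genes that work together. MMP14 is a membrane-anchored collagenase that activates the secreted gelatinase MMP2. Mmp2 (ENSMUSG00000031740) had 197 and 128 CPM (WT) against 170 and 179 CPM (KO), so both KO values lay between the WT values. The log2 fold change was 0.11 ± 0.29, and -0.03 with total count scaling. Mmp14 (ENSMUSG00000000957) had 118 and 117 CPM (WT) against 137 and 117 CPM (KO), with a log2 fold change of 0.11 ± 0.24, and -0.00 with total count scaling. KO replicate 1 stood a little above the other 3 libraries, which were nearly equal. The summed level of the Mmp family was 332 and 264 CPM (WT) against 328 and 327 CPM (KO). Mmp2 is known as a stromal enzyme, and its values can be read beside the fibroblast markers: 8 of them summed to 574 and 634 CPM (WT) against 681 and 918 CPM (KO), with no marker called. Most of each sum was Fbn1, with 384 and 407 CPM (WT) against 399 and 487 CPM (KO). Both KO libraries stood above both WT libraries in Dcn, with 89.5 and 106 CPM (WT) against 153 and 221 CPM (KO), and in Col6a1, with 47.2 and 46.4 CPM (WT) against 75.6 and 132 CPM (KO). Both stood below in Dpt, and the other 5 overlapped, among them Col3a1 at 10.7 and 30.3 CPM (WT) against 19.3 and 21.2 CPM (KO). Of the 8 markers, 25% thus stood above and 12.5% below, against 13.2% and 19.2% of all tested genes. The part of these markers in the Mmp2 level was not tested.

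The remaining membrane-type genes were low. Mmp15 had 1.3 and 2.79 CPM (WT) against 1.5 and 1.94 CPM (KO), and Mmp17, Mmp24 and Mmp25 had 0 counts in KO replicate 2. Mmp17 had 125 and 112 counts in WT and 204 in KO replicate 1, so KO replicate 1 was the highest library. Mmp13, the main rodent collagenase for fibrillar collagen, had 142 and 29 counts (WT) against 303 and 0 counts (KO), the same order. Mmp16 had at most 5 counts and was not tested.

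Stromelysins, which cut many matrix proteins and activate other MMPs, were scarce. Mmp3 (ENSMUSG00000043613), the stromelysin linked to branching and involution, had 76 and 272 counts (WT) against 168 counts (KO replicate 1) and 1 count (KO replicate 2). Mmp11, a stromelysin of stromal cells, had 51 and 22 counts (WT) against 92 and 0 counts (KO). Mmp10 had 14 and 47 counts (WT) against 2 and 0 counts (KO). Mmp21, a distant MMP, had nearly the same pattern, with 21 and 46 counts (WT) against 2 and 0 counts (KO). Mmp21 and Mmp10 had the smallest unadjusted p of all members in the edgeR test, 0.0907 and 0.103, and neither passed. Their means over the 4 libraries were 0.294 CPM (Mmp21) and 0.268 CPM (Mmp10), and the cause of the low KO counts was not tested.

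Mmp12 and Mmp19 were high in KO replicate 2. Mmp12 (ENSMUSG00000049723), the elastase of macrophages, had 2.7 and 3.66 CPM (WT) against 2.47 CPM (KO replicate 1) and 21.8 CPM (KO replicate 2). Mmp19 (ENSMUSG00000025355), a secreted MMP, had 1.17 and 1.45 CPM (WT) against 1.73 and 6.95 CPM (KO). Without KO replicate 2 the log2 fold change of Mmp12 went from 1.93 to -0.36 and that of Mmp19 from 1.73 to 0.41. Adam8, a sheddase best known from leukocytes, had 6.28 and 3.97 CPM (WT) against 6.54 and 10.7 CPM (KO). The summed level of 7 immune markers was also highest in KO replicate 2, at 66.0 and 149 CPM (WT) against 97.4 and 319 CPM (KO). Most of that sum was Cd74, with 289 CPM in KO replicate 2. Ptprc (25 CPM) and Cd3e (3 CPM) were also highest there, whereas Lyz2 (1.37 CPM, against 3.5 and 4.44 in WT and 20 in KO replicate 1), Csf1r (7 counts), Cd79a (1 count) and Adgre1 (0 counts) were not. The neutrophil list summed to 192 CPM in KO replicate 2, all of it from Csf3r, with S100a8, S100a9, Ly6g and Elane at 0 counts. The part of these cell types in the levels of Mmp12, Mmp19 and Adam8 was not tested. Exons of Mmp12 overlap Mmp1b on the other strand.

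Among catalytic ADAMs, Adam10 and Adam9 varied little between libraries, and Adam17 and Adam12 varied more. Adam10 (ENSMUSG00000054693), the main sheddase of Notch receptors, had 80.2 and 81.5 CPM (WT) against 80.4 and 61.6 CPM (KO). The log2 fold change was -0.19 ± 0.30, and only KO replicate 2 left the narrow range of the other 3. Adam17 (ENSMUSG00000052593), which releases amphiregulin and other EGF-receptor ligands in the growing duct, had 43.8 and 46.3 CPM (WT) against 38.7 and 20.8 CPM (KO). Both KO libraries stood below both WT libraries, with a log2 fold change of -0.60 ± 0.46 and an edgeR adjusted p of 0.999. It was -0.22 without KO replicate 2 and -1.12 without KO replicate 1. Its exons overlap Iah1 on the other strand. Adam9 (ENSMUSG00000031555), a widely expressed sheddase, had 62.8 and 68 CPM (WT) against 72 and 69.8 CPM (KO). The groups did not overlap, but the gap was small, with a log2 fold change of 0.12 ± 0.29, and -0.01 with total count scaling.

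Adam12 (ENSMUSG00000054555), a protease with membrane and secreted forms, had 101 and 116 CPM (WT) against 75 CPM (KO replicate 1) and 211 CPM (KO replicate 2). The KO libraries lay on opposite sides of WT, and the log2 fold change was 0.40 ± 0.52, or -0.53 without KO replicate 2. Adam15, an ADAM with an integrin-binding motif, had 13 and 23.4 CPM (WT) against 15.6 CPM (KO replicate 1) and 0.791 CPM (KO replicate 2). Adam22, a catalytically inactive ADAM known as a neuronal receptor, had 10.1 and 5.75 CPM (WT) against 13 CPM (KO replicate 1) and 0.24 CPM (KO replicate 2). Both were low in that library alone.

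ADAMs of the reproductive tract, several of which act in sperm, were absent or low. Of 21 such rows, 14 had no count. Their summed level was 4.01 and 8.96 CPM (WT) against 5.7 and 0.288 CPM (KO). Adam30, with the highest mean of this group, had 9 and 342 counts (WT) against 77 and 12 counts (KO), so WT replicate 2 alone was high. Adam1a, a subunit of a sperm surface protein, had 112 and 152 counts (WT) against 30 and 0 counts (KO), and its exons overlap Mapkapk5 on the same strand. Adam4 had 14 and 22 counts (WT) against 142 and 0 counts (KO). The summed level of the Adam family was 323 and 355 CPM (WT) against 310 and 376 CPM (KO).

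**Figure D3:**
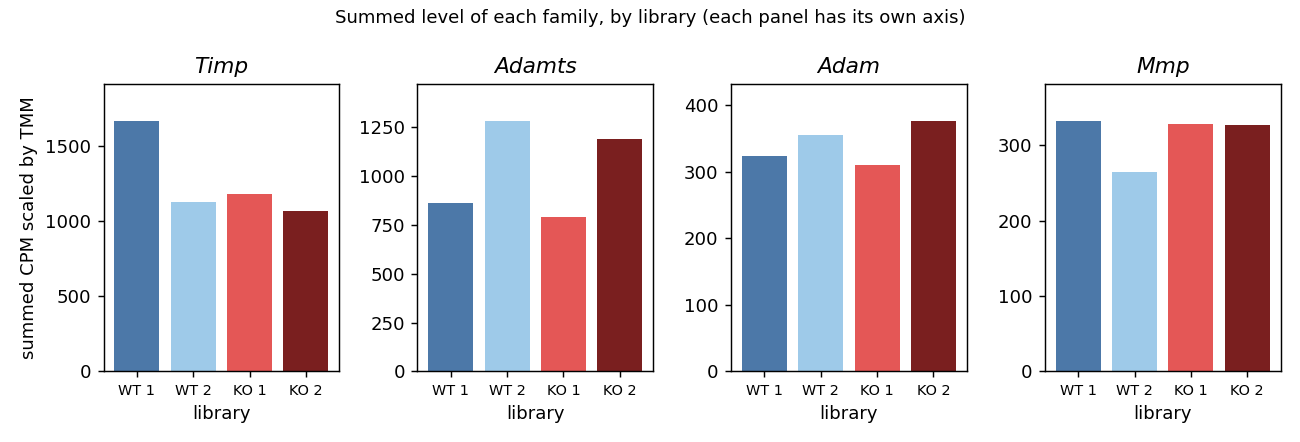
Summed CPM of each family (bars, 1 per library, each panel with its own axis from 0). For Adamts, WT replicate 1 and KO replicate 1 (863 and 788 CPM) lie below WT replicate 2 and KO replicate 2 (1279 and 1187 CPM), and no family separates the genotypes.

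Among ADAMTSs that cut proteoglycans, Adamts1 dominated. ADAMTS1 cuts versican, a large proteoglycan of loose matrix. Adamts1 (ENSMUSG00000022893) had 503 and 713 CPM (WT) against 390 and 753 CPM (KO), or 608 ± 149 and 572 ± 257 CPM. The KO libraries enclosed both WT libraries, and the log2 fold change was -0.09 ± 0.38. Adamts5 (ENSMUSG00000022894), an aggrecanase, had the same order of libraries, with 43.4 and 77.5 CPM (WT) against 36.7 and 117 CPM (KO). Adamts4 (ENSMUSG00000006403), the other main aggrecanase, had 66.7 and 137 CPM (WT) against 82.9 and 87.2 CPM (KO), so both KO values lay between the WT values. Adamts9 (ENSMUSG00000030022), which cuts versican and is also needed for cilia, had 125 and 183 CPM (WT) against 175 and 132 CPM (KO). The KO values again lay inside the WT range, and the log2 fold change was -0.01 ± 0.30. Adamts20 had 11.9 and 6.3 CPM (WT) against 7.57 and 0.935 CPM (KO), and Adamts15 had 45 and 259 counts (WT) against 47 and 67 counts (KO). In the first KO replicate 2 alone was low, and in the second WT replicate 2 alone was high. Over the 7 members of this group, 1 had a positive and 6 a negative fold change, with a median of -0.17. The positive share was 14.3%, against 42.8% of all tested genes, whose median was -0.14.

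The ADAMTS genes also differed between the WT replicates. WT replicate 2 was above WT replicate 1 in 10 of 16 tested Adamts members, with a median difference of 0.48 on the log2(CPM + 0.5) scale. Over all tested genes it was above in 7540 of 15364, with a median difference of -0.01. The summed Adamts level was 863 and 1279 CPM (WT) against 788 and 1187 CPM (KO). The largest part of each sum was Adamts1, with 503 and 713 CPM (WT) against 390 and 753 CPM (KO). Marker sums were also higher in WT replicate 2 than in WT replicate 1 for every listed cell type but basal cells (8909 and 9231 CPM): luminal (869 and 535 CPM), fibroblast (634 and 574 CPM), pericyte (191 and 80.1 CPM), immune (149 and 66.0 CPM), endothelial (124 and 71.1 CPM), adipocyte (28.5 and 16 CPM) and neutrophil (2.49 and 0.515 CPM). Single markers did not all follow the sums. WT replicate 2 was the higher in 2 of 5 tested endothelial, 6 of 8 fibroblast and 6 of 7 luminal markers. The same held for 5 of 6 tested immune and 5 of 5 pericyte markers. The adipocyte sum was nearly all Fabp4 (28.3 and 14.8 CPM). Adipoq (14 and 0 counts) was also higher, while Lep (0 and 47 counts) and Plin1 (0 and 19 counts) were lower. The part of these cell types in the Adamts difference was not tested.

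Of the remaining ADAMTSs, Adamts18, Adamts17, Adamts10 and Adamts13 were lower in both KO libraries than in both WT libraries. This order was seen in 4 of 16 tested Adamts members (25%), against 19.2% of all tested genes. Adamts18 (ENSMUSG00000053399), which myoepithelial cells secrete and which remodels the basement membrane around mammary stem cells, had 31 and 43.9 CPM (WT) against 28.2 and 19.4 CPM (KO). Both KO libraries were below WT, though KO replicate 1 only narrowly, and the log2 fold change was -0.65 ± 0.47. Adamts17 (ENSMUSG00000058145), related to fibrillin assembly, had 27.9 and 24.1 CPM (WT) against 19.9 and 4.79 CPM (KO), giving a log2 fold change of -1.07 ± 0.82. Without KO replicate 2 it was -0.38 for Adamts17 and -0.41 for Adamts18, and without KO replicate 1 it was -2.44 and -0.95. Without WT replicate 2 the value for Adamts18 was -0.38. Neither passed the edgeR test (adjusted p = 0.999 for each).

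Adamts7, which cuts cartilage oligomeric matrix protein, had 7.9 and 33.4 CPM (WT) against 8.31 and 0.983 CPM (KO). WT replicate 2 alone was high, so KO replicate 1 lay inside the WT range. The log2 fold change was -2.15 ± 1.32, but -0.76 without WT replicate 2, -1.31 without KO replicate 2 and -4.40 without KO replicate 1. Its exons overlap Tbc1d2b on the other strand. Adamts10, another gene of fibrillin biology, had 211 and 162 counts (WT) against 137 and 3 counts (KO). Adamts13, which cuts von Willebrand factor, had 3.89 and 4.2 CPM (WT) against 2.08 and 3.72 CPM (KO). Adamts12, an ADAMTS that also cuts cartilage oligomeric matrix protein, had 7.36 and 11.1 CPM (WT) against 8.37 and 4.43 CPM (KO).

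The procollagen-processing pair behaved differently from each other. Adamts3 (ENSMUSG00000043635) had 25.5 and 35.6 CPM (WT) against 21.7 and 39.8 CPM (KO), with a log2 fold change of 0.01 ± 0.51, and -0.15 with total count scaling. Adamts14 (ENSMUSG00000059901) had 132 and 11 counts (WT) against 26 counts (KO replicate 1) and 936 counts (KO replicate 2), or 22.4 CPM in that last library. Its log2 fold change of 3.17 ± 2.18 rested on KO replicate 2 and was -1.60 without it.

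**Figure D4:**
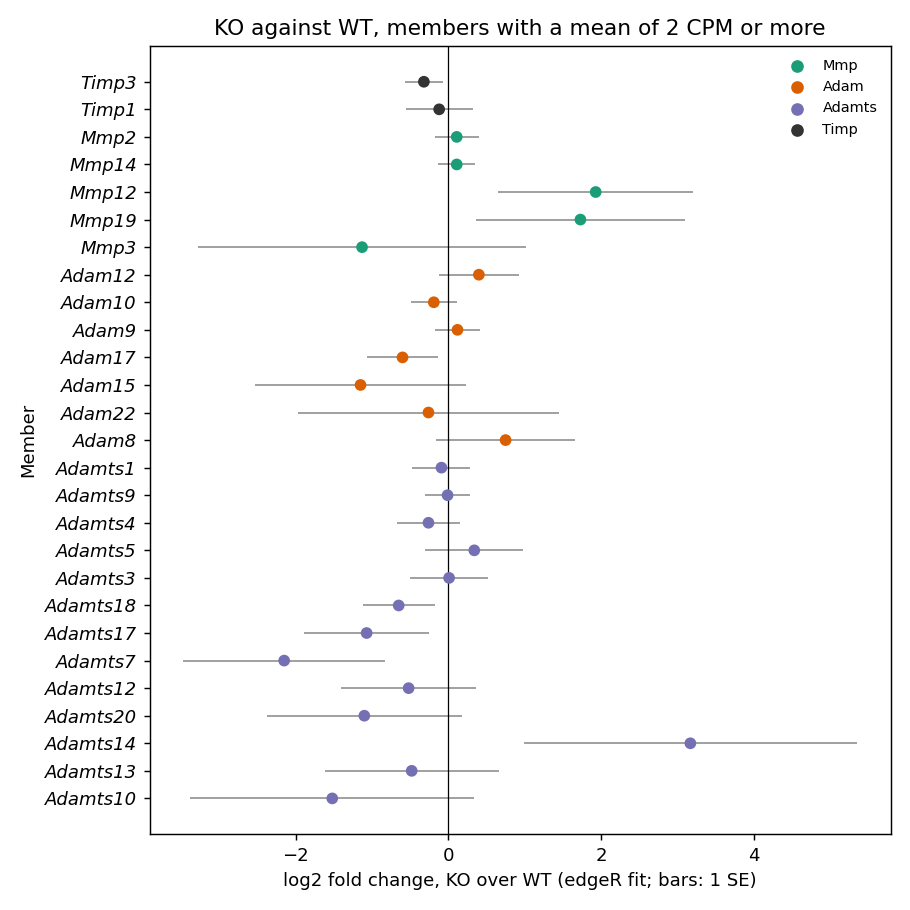
Log2 fold change, KO over WT, estimated by edgeR (points, coloured by family) with 1 SE on each side (bars), for the members with a mean of 2 CPM or more. The genes of higher level mostly have the shorter bars, and the wide bars of Adamts14, Adamts10 and Mmp3 belong to genes that differ between the KO libraries.

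Each KO library was then set against the WT mean on the log2(CPM + 0.5) scale. Over the 48 tested members the median was -0.06 in KO replicate 1 and -0.61 in KO replicate 2, against 0.00 and -0.40 over all tested genes. By family, KO replicate 1 and KO replicate 2 gave 0.08 and -1.03 for Mmp, 0.13 and -0.56 for Adam, -0.42 and -0.29 for Adamts and -0.01 and -0.45 for Timp. In the 14 members with a mean of 20 CPM or more the medians were -0.21 and -0.07, and the edgeR median log2 fold change was -0.05, against 0.11 over all genes of that level. In the 13 members at 2 to 20 CPM the medians were -0.19 in KO replicate 1 and -2.32 in KO replicate 2, against -0.01 and -0.82 over all genes of that level.

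**Figure D5:**
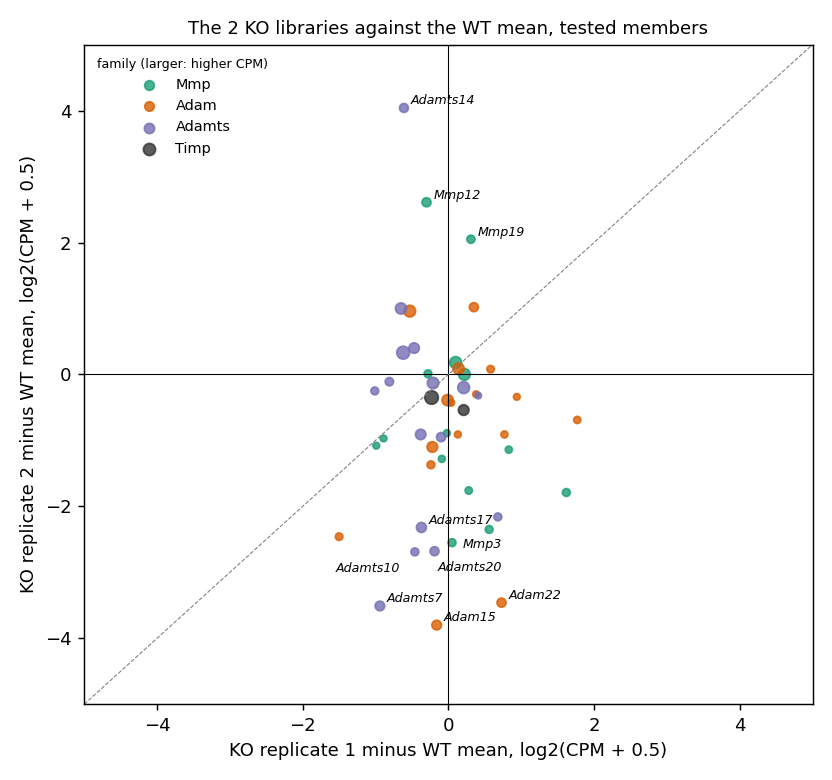
Difference from the WT mean in KO replicate 1 (x axis) and KO replicate 2 (y axis), both on the log2(CPM + 0.5) scale, for the 48 tested members, coloured by family; the dashed line marks equal differences. Points spread far along the y axis, from Adam15 at -3.80 to Adamts14 at 4.04, and less along the x axis, where those genes stand at -0.16 and -0.61.

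Calls among members appeared when KO replicate 1 was left out, so that KO replicate 2 was the sole KO library. The edgeR test then called 13 of 48 members lower (27.1%, against 22.5% of all tested genes) and 4 higher (8.33%, against 12.4%). The 4 higher were Adamts14, Mmp12, Mmp19 and Adam12, and the 13 lower included Adam1a, Adam15, Adam17, Adamts7, Adamts17 and Mmp3. Without KO replicate 1 the edgeR log2 fold changes were 4.15 for Adamts14 (adjusted p = 0.0286), 2.77 for Mmp12 (0.00717), -4.53 for Adam15 (0.00463) and -1.12 for Adam17 (0.0352). The median over the 48 members was then -2.86, against -0.71 over all tested genes. Without KO replicate 2 the median over the tested members was -0.20, against -0.04 over all tested genes. KO replicate 2 and the genotype cannot be told apart in the first of these comparisons.

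Genes that act with the proteases were read from the same fit in 4 lists, and 0 of their 65 genes with a row were called. Of these, A2m, Egf, Adamtsl2 and Bcan did not pass the filter on low counts and were not tested. Proprotein convertases and membrane partners of ADAM10 and ADAM17 had 4 positive and 6 negative fold changes among 10 tested members, with a median of -0.21. The positive share was 40%, against 42.8% of all tested genes, whose median was -0.14. Furin, the convertase that removes the propeptide of many ADAMs and of MMP14, had 146 and 162 CPM (WT) against 137 and 286 CPM (KO). Pcsk5, another convertase, had 58.6 and 87.9 CPM (WT) against 70.8 and 154 CPM (KO). Tspan5, a tetraspanin that carries ADAM10 to the surface, had 96.5 and 93.7 CPM (WT) against 114 and 105 CPM (KO), with both KO libraries above WT. Rhbdf1, Rhbdf2 and Tspan10 were not analysed here.

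Plasminogen activation, which feeds MMP activation, held the smallest p among these lists. Plat, the tissue plasminogen activator, had 116 and 119 CPM (WT) against 178 and 307 CPM (KO), with a log2 fold change of 1.04 ± 0.32, an unadjusted edgeR p of 0.0232 and an adjusted p of 0.999. Bsg, which encodes an MMP inducer, had 103 and 105 CPM (WT) against 117 and 255 CPM (KO). Plau, the urokinase activator, had 75.9 and 95.8 CPM (WT) against 95.1 and 58.9 CPM (KO). Reck, a membrane inhibitor of MMPs, had 19.8 and 26.4 CPM (WT) against 40.8 and 18.2 CPM (KO). Of 16 tested members 7 were positive (43.8%, against 42.8% of all tested genes), with a median of -0.08.

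Substrates released from the cell surface were 15 positive and 8 negative (65.2% positive), with a median of 0.21. The share was 42.8% over all tested genes (median -0.14) and 59.3% over those with a mean of 20 CPM or more (median 0.11). Areg, the amphiregulin released by ADAM17, had 29.8 and 32.5 CPM (WT) against 29 and 23.5 CPM (KO). Cd44, a hyaluronan receptor, had 2457 and 2472 CPM (WT) against 2770 and 3981 CPM (KO), and the Notch ligand gene Dll1 had 113 and 95.1 CPM (WT) against 75.1 and 68.4 CPM (KO). Btc, betacellulin, had 2.73 and 2.57 CPM (WT) against 4.18 and 20.8 CPM (KO). The groups did not overlap in any of these 4 genes. Over the 23 tested members of the list, 3 (13%) had both KO libraries above both WT libraries and 3 (13%) had both below, against 13.2% and 19.2% of all tested genes. Cxcl16 was not analysed here.

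ADAMTS-like proteins and ADAMTS substrates were 7 positive and 5 negative (58.3% positive, against 42.8% of all tested genes), with a median of 0.07. Fbln1, fibulin-1, a cofactor of ADAMTS1, had 10.1 and 7.7 CPM (WT) against 10.8 and 103 CPM (KO). Fn1, fibronectin, had 85.1 and 94.7 CPM (WT) against 120 and 159 CPM (KO), giving a log2 fold change of 0.63 ± 0.27 with both KO libraries above WT. Adamtsl1 had 3.41 and 1.61 CPM (WT) against 2.23 and 42.8 CPM (KO). The versican gene Vcan, the substrate of Adamts1, Adamts4, Adamts5 and Adamts9, had 457 and 762 CPM (WT) against 535 and 749 CPM (KO). The second library of each genotype was the higher one, the order also seen in Adamts1, Adamts4 and Adamts5. It was not seen in Adamts9, where KO replicate 1 was above KO replicate 2. How many of all genes have this order was not counted. Vcan was chosen after its values were seen, as were the members Mmp1b, Mmp13, Mmp15, Mmp16, Mmp17, Mmp20, Mmp24, Mmp25, Adam15, Adam22, Adam30, Adamts10, Adamts12, Adamts13, Adamts15, Adamts19 and Adamts20.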

How the data were processed

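The deposited values are read counts per Ensembl gene, 1 file for each of 2 WT and 2 KO libraries. The submitters' processing notes name TopHat2 (2.02), HTSeq and NCBIM37 (mm9). For strand setting, annotation release and overlap rule the sources used here give nothing. The 5 summary lines of each file were removed first (no feature 57.59% to 61.52%, ambiguous 0.71% to 0.79% of the file's total). Symbols, biotypes and exon lengths came from GENCODE M21 (GRCm38), matched by identifier for 30082 rows. Since that build differs, gene coordinates are not given.

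Genes were tested over the whole table with edgeR 4.0.16 in R 4.3.3 (filterByExpr, TMM, glmQLFTest on genotype), adjusted after Benjamini and Hochberg with a threshold of 0.05. CPM are scaled by TMM, and per-library log2 differences use a pseudocount of 0.5. The procedure was tested on simulated counts. Alternatives were DESeq2 1.42.0, limma 3.58.1 voom, other scalings and filters, a replicate block, and each library left out, where a lone library is assumed to vary like the others. Named were members with a mean of 20 CPM or more, the 6 per direction with the smallest p, a fixed set (Mmp2, Mmp3, Mmp7, Mmp9, Mmp11, Mmp14, Adam10, Adam17, Adamts1 and the Timp genes), and in each partner list the 3 with the smallest p plus a fixed set (Reck, Furin, Plau, Areg and 1 gene that is not reported here). Members and lists were chosen with earlier results of these data known.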

Additional observations from a re-analysis of the deposited data

How the results depend on the processing

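With 2 libraries a genotype and a biological coefficient of variation of 0.932, single-gene differences of several-fold could go uncalled. DESeq2 and the run with no low-count filter reversed 0 of the 41 named genes that they tested, and no alternative that kept all 4 libraries called a member. Leaving out 1 library at a time gave 0 to 17 called members and 0 to 23 called partner genes, the highest values without KO replicate 1. In that run KO replicate 2 was the sole KO library, and 22.5% of all tested genes were called lower and 12.4% higher. The shares of members were 27.1% and 8.33%, so their count does not set them apart from other genes. The share of partner genes was not compared with all genes, so no conclusion is drawn from their count. The median log2 fold change of the Mmp family was -1.98 with limma voom, -2.19 with the replicate block and -7.85 to -0.04 with 1 library left out. For the Adam family it was -0.69 with the block and -4.53 to 0.26 with 1 library left out. For the Adamts family it was -0.49 (upper quartile scaling), -0.50 (total count), -0.48 (no low-count filter), -0.55 (voom), -0.55 (block) and -0.95 to -0.27 with 1 library left out. The median over all genes was -0.14 with TMM, -0.23 with upper quartile and -0.24 with total count scaling.

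Signs that reversed were those of Mmp2 (upper quartile -0.01, total count -0.03), Mmp14 (total count -0.00), Adam9 (total count -0.01), Adamts3 (upper quartile -0.14, total count -0.15, mean of 5 CPM or more -0.05, voom -0.11, block -0.04), Adamts9 (voom 0.03, block 0.01), Adam4 (voom -0.75, block -0.90) and Mmp11 (voom -1.99, block -2.22). With 1 library left out the log2 fold change ranged from -0.53 to 0.96 for Adam12, -7.03 to 2.86 for Adam4, -0.64 to 0.30 for Adamts1, -1.60 to 5.92 for Adamts14, -0.49 to 0.38 for Adamts3, -0.69 to 0.35 for Adamts4, -0.72 to 0.95 for Adamts5, -0.25 to 0.29 for Adamts9, -0.17 to 4.09 for Adamtsl1 and -0.17 to 0.89 for Furin. It ranged from -8.07 to 1.20 for Mmp11, -0.36 to 2.77 for Mmp12, -0.01 to 0.22 for Mmp14, -0.17 to 0.45 for Mmp2, -6.82 to 0.01 for Mmp3, -0.05 to 1.06 for Pcsk5, -0.55 to 0.15 for Plau, -0.35 to 0.82 for Reck and -0.55 to 0.21 for Timp1. The cause of these differences was not tested.

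The genotypes share replicate numbers, but same-numbered libraries deviated from their group means with a correlation of only 0.0205, so the numbers were not taken as pairs. With the number as a block, 79 genes had an unadjusted p under 0.05 and edgeR called 0 genes, members included.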
